A study of Mus musculus with 6 samples.

Results

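The transcripts of 10 Bcl2 family genes were followed in long-term (LT) chronic myelogenous leukaemia (CML) stem cells, out of 36976 genes in the deposited table. The members were chosen by name, with earlier results of these data known. They were the survival genes Bcl2, Bcl2l1 and Mcl1, the effector genes Bax and Bak1, and the BH3-only genes Bcl2l11, Bbc3, Pmaip1, Bid and Bad. All 10 passed the filter on low values, a mean of at least 0.05 FPKM (fragments per kilobase of transcript, scaled to the depth of the library) over the 6 libraries. LT-CML stem cells were the CD150+CD48-CD135- Lineage-Sca-1+cKit+ cells of bone marrow, taken 5 weeks after the leukaemia was induced. Every mouse in both groups was C57BL/6 and carried SCL-tTA and TRE-BCR-ABL1, a pair of transgenes in which the SCL (Tal1) regulatory sequence drives the tetracycline transactivator in blood stem and progenitor cells and BCR-ABL1 is switched on by doxycycline withdrawal. The 3 Gdpd3+/+ libraries (replicates 1, 2 and 3) had an intact Gdpd3, which encodes a lysophospholipase D. The 3 Gdpd3-/- libraries (replicates 5, 6 and 7) came from mice with a short CRISPR/Cas9 deletion after its start codon. RNA came from more mice than libraries, 22 males and 12 females for the Gdpd3+/+ and 5 males and 5 females for the Gdpd3-/- group. The groups thus differed in the number of mice and in the ratio of the sexes. The labels do not say which mice entered which library, and the p-values therefore measure the spread between these libraries only.

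Proteins of the Bcl2 family decide whether the outer membrane of the mitochondrion stays closed. The survival proteins Bcl2, Bcl-xL (from Bcl2l1) and Mcl1 hold the effectors Bax and Bak in check. Once free, the effectors form pores through which cytochrome c escapes and starts the caspase cascade. BH3-only proteins such as Bim (from Bcl2l11), Puma (from Bbc3), Noxa (from Pmaip1), Bid and Bad carry stress and growth factor signals to the family by inserting their BH3 helix into the groove of a survival protein or by engaging an effector. Blood stem cells depend on Mcl1, and signalling from BCR-ABL1 is known to raise Bcl-xL and Mcl1 and to keep Bim low. Much of this control acts on protein, so an mRNA level is not a protein level.

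The BH3 core is the feature that all the members share. Shown here for 9 members is the coding sequence around it, from GENCODE M21 transcripts on GRCm38, with the 6 codons of the core, from a leucine to an aspartate, in capitals. Every transcript shown is also listed for its gene in the deposited table, a match to the core occurred 1 time in each of the 9 coding sequences, and exons are counted along that transcript. Pmaip1 is not shown.
Bcl2, exon 1, chr1:106712578-106712607, minus strand: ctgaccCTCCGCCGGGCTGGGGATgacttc
Bcl2l1, exon 2, chr2:152829700-152829729, minus strand: caagcgCTGAGAGAGGCAGGCGATgagttt
Mcl1, exon 1, chr3:95659430-95659459, plus strand: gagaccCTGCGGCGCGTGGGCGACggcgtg
Bax, exon 3, chr7:45466000-45466029, minus strand: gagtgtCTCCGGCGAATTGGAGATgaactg
Bak1, exon 4, chr17:27022534-27022563, minus strand: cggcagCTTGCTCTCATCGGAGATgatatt
Bcl2l11, exon 3, chr2:128147144-128147173, plus strand: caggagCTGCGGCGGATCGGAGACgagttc
Bbc3, exon 3, chr7:16313767-16313796, plus strand: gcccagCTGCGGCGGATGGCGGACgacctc
Bid, exon 4, chr6:120897292-120897321, minus strand: agacatCTCGCCCAAATAGGCGATgagatg
Bad, exon 3, chr19:6950786-6950815, plus strand: cgtgagCTCCGAAGGATGAGCGATgagttt

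The libraries behind these values differed in depth and in content. Bases covered on genes, recovered from the FPKM values, came to 4.98 to 6.28 Gb in the Gdpd3+/+ and 2.13 to 3.64 Gb in the Gdpd3-/- libraries. The Gdpd3 transcript stood at 7.30, 3.29 and 2.95 FPKM in the Gdpd3+/+ libraries (here and throughout in the order 1, 2, 3) and at 0.110, 0.0129 and 0.681 FPKM in the Gdpd3-/- libraries (in the order 5, 6, 7), so each library went with its label, although a short deletion need not remove a transcript. The sort markers were present in every library, with Kit (cKit) at 108.3 to 135.8 FPKM, Ly6a (Sca-1) at 342 to 563 FPKM and Slamf1 (CD150) at 5.41 to 13.2 FPKM. Among the markers the sort selects against, Flt3 (CD135) was at 11.01, 10.6 and 9.80 FPKM in the Gdpd3+/+ and 46.5, 37.8 and 36.8 FPKM in the Gdpd3-/- libraries (log2 fold change 1.93, adjusted p = 0.00562 in limma). Cd48 was at 39.8, 41.2 and 44.8 FPKM and at 51.6, 54.0 and 92.3 FPKM (adjusted p = 0.188 in limma). The summed FPKM of 9 neutrophil genes was 28553 to 31493 in the Gdpd3+/+ and 7833 to 13460 in the Gdpd3-/- libraries. In all Gdpd3-/- libraries 8 of the 9, S100a8 at their head, were below every Gdpd3+/+ library (8.27% of all genes were). The sum of 10 skeletal muscle genes was 781 to 1156 in the Gdpd3+/+ libraries and 10076, 14562 and 1925 in Gdpd3-/- replicates 5, 6 and 7. In all Gdpd3-/- libraries all 10 genes, Acta1 at their head, were above every Gdpd3+/+ library (23.5% of all genes were). Sums were 90.5 to 97.7 and 85.9 to 107.0 FPKM for B and plasma cell genes (highest Cd79b), and 3136 to 4935 and 1957 to 4915 FPKM for erythroid genes (highest Hba-a1). Single genes moved apart within these overlapping sums. Of 10 entries for B and plasma cell genes, 3 lay above and 2 below every Gdpd3+/+ library in all Gdpd3-/- libraries. Of 8 erythroid genes, 0 lay above and 1 below. Over all genes these shares were 23.5% above and 8.27% below. T and NK cell genes (highest Lck) summed to 7.56 to 9.85 and 9.05 to 17.1 FPKM, with Cd8a at 0 in 4 of the 6 libraries and at no more than 0.00120 FPKM in the others. What part these contents had in the family's values was not tested. The values without single libraries given below cannot test it, since the neutrophil and muscle sums differed in all 3 Gdpd3-/- libraries.

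No member passed an adjusted p of 0.05 between the genotypes in limma. That is 0 of 10, against 1.09% of the 24689 genes tested that passed as higher and 0.616% that passed as lower in Gdpd3-/- cells. At an unadjusted p under 0.05 limma had 3 members higher in Gdpd3-/- cells (Bak1, Bbc3 and Bad), where 16.5% of all genes were, and 1 lower (Bcl2l1), where 5.76% of all genes were. By order alone, 4 members lay above every Gdpd3+/+ library in all Gdpd3-/- libraries (Bax, Bak1, Bbc3 and Bad; 23.5% of all genes did so), and 2 lay below (Bcl2l1 and Bid; 8.27% of all genes did so). For each of these 6 genes the two-sided exact permutation test gave p = 0.1, the smallest p that 20 assignments of 3 against 3 libraries allow. The background was uneven, since over all genes tested the log2 fold change had a median of 0.24, towards higher values in Gdpd3-/- cells, so a fold change is also given here against that median. The counts turned with the scaling of libraries. Under TMM (trimmed mean of M values) scaling 0 members were higher at an unadjusted p under 0.05 in limma (8.95% of all genes) and 2 lower (Bcl2l1 and Bid; 10.8%), and under quantile scaling 1 was higher (Bad; 9.15%) and 2 lower (Bcl2l1 and Bid; 10.2%). Without overlap between the genotypes, 2 members lay higher (Bak1 and Bbc3; 14.5% of all genes) and 2 lower (Bcl2l1 and Bid; 15.2%) under TMM, and 2 higher (Bbc3 and Bad; 13.6%) and 2 lower (Bcl2l1 and Bid; 15.5%) under quantile scaling. In bulk RNA, fewer cells that express a gene and less of its RNA per cell cannot be told apart.

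**Figure D1:**
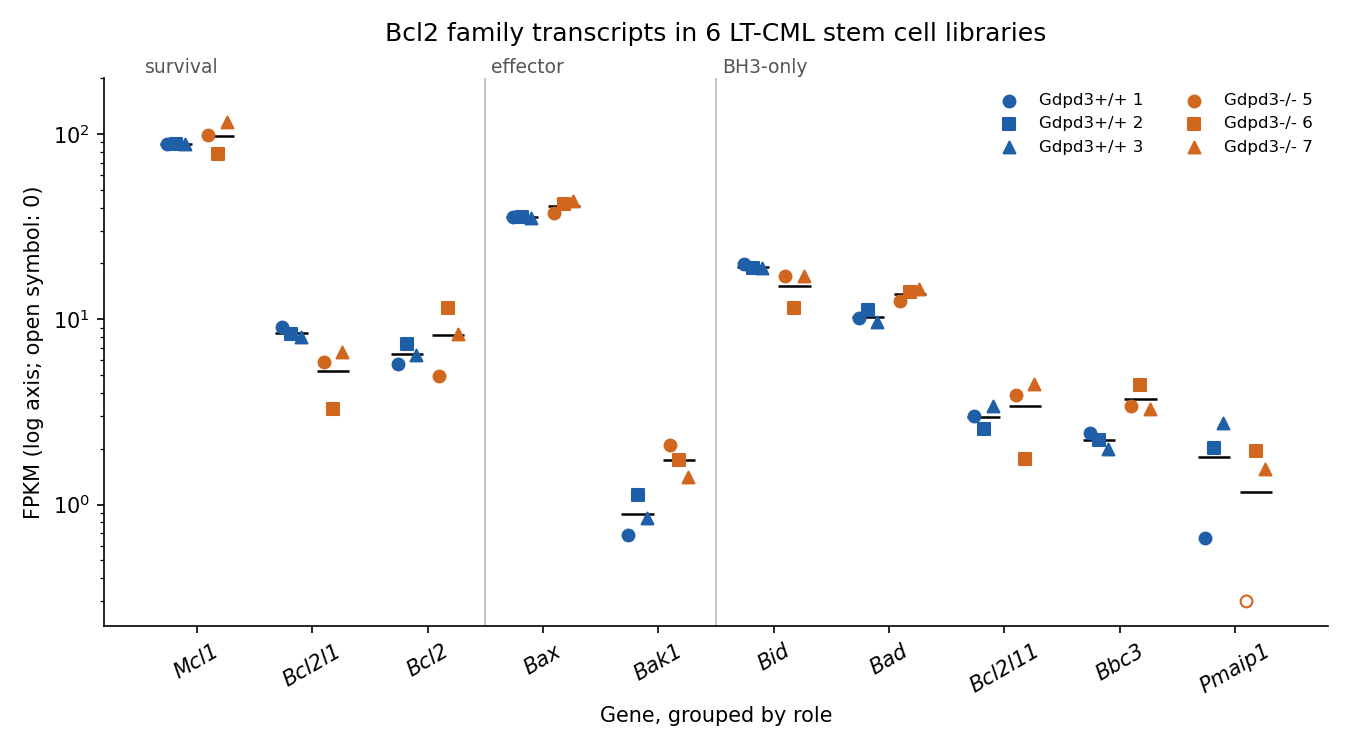
FPKM (log axis) of the 10 Bcl2 family genes, grouped by role, in 3 Gdpd3+/+ (blue) and 3 Gdpd3-/- (orange) LT-CML stem cell libraries; each symbol is 1 library, black lines are group means and the open symbol is a listed value of 0. Mcl1 stood highest at 78.2 to 116 FPKM, and Gdpd3-/- replicate 6 (orange square) had the lowest Bcl2l1, Bid and Bcl2l11 and the highest Bcl2 and Bbc3.

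The levels ran from Mcl1 down to Bak1 in Gdpd3+/+ cells. FPKM is scaled to a single length per gene, while Bcl2l1 has 10 and Bcl2l11 has 8 listed transcripts. Close levels of different genes are therefore only roughly comparable. In Gdpd3+/+ cells the mean FPKM was 88.2 for Mcl1, 35.4 for Bax, 19.2 for Bid, 10.3 for Bad and 8.42 for Bcl2l1. It was 6.49 for Bcl2, 2.98 for Bcl2l11, 2.22 for Bbc3 and 0.886 for Bak1. Each neighbour in that order was separated from the next in all 3 Gdpd3+/+ libraries down to Bbc3, whose values overlapped those of Pmaip1, and Pmaip1 in turn overlapped Bak1. In Gdpd3-/- cells Mcl1 and Bax again stood clear at the top. There Bid overlapped Bad, and Bad stood above Bcl2 in all 3 libraries, while the lowest Bid (11.51 FPKM) was just under the highest Bcl2 (11.52 FPKM), both in replicate 6. From Bcl2 through Bcl2l1, Bbc3, Bcl2l11, Bak1 and Pmaip1 every neighbour overlapped the next.

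Mcl1 (ENSMUSG00000038612.9, mm9 chr3:95462643-95467099), a short-lived survival protein on which blood stem cells rely, was the most abundant member. It was at 88.0, 88.2 and 88.3 FPKM in the Gdpd3+/+ and at 98.2, 78.2 and 116 FPKM in the Gdpd3-/- libraries. The Gdpd3+/+ libraries were almost equal, with a coefficient of variation of 0.149% against 19.6% in the Gdpd3-/- libraries, whose values lay on both sides of them. The difference of spread was not particular to Mcl1. Over genes with a mean of at least 1 FPKM, Pearson's r of log2(FPKM + 0.1) was 0.973 to 0.979 between Gdpd3+/+ libraries. Between Gdpd3-/- libraries it was 0.808 to 0.865. The limma fit takes a single variance per gene for both groups. The Gdpd3+/+ group had more mice and deeper libraries, whose part in this difference of spread was not tested. The log2 fold change, Gdpd3-/- minus Gdpd3+/+ on log2(FPKM + 0.1), was 0.13 (SE 0.15, 95% interval -0.23 to 0.49, adjusted p = 0.612 in limma).

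Bcl2l1 (ENSMUSG00000007659.11, mm9 chr2:152593052-152657464), the gene of Bcl-xL and a known target of Stat5 downstream of BCR-ABL1, was the survival gene that differed most. It was at 9.02, 8.28 and 7.97 FPKM in the Gdpd3+/+ libraries (8.42 ± 0.540, SD, n = 3) and at 5.85, 3.29 and 6.67 FPKM in the Gdpd3-/- libraries (5.27 ± 1.77, SD, n = 3). The Gdpd3-/- libraries all lay under the Gdpd3+/+ range, and replicate 6 was the lowest. The ratio of means was 0.626 and the log2 fold change was -0.72 (SE 0.28, 95% interval -1.38 to -0.07, unadjusted p = 0.0352, adjusted p = 0.191 in limma). Without Gdpd3-/- replicate 6 the log2 fold change was -0.42, and without replicate 5 and without replicate 7 it was -0.83 and -0.92.

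Bcl2 (ENSMUSG00000057329.6, mm9 chr1:108434755-108610851), the founding survival gene, was at 5.71, 7.33 and 6.44 FPKM in Gdpd3+/+ cells. In Gdpd3-/- cells it was at 4.92, 11.5 and 8.35 FPKM. The Gdpd3-/- libraries held both the lowest and the highest value, and the log2 fold change was 0.27 (SE 0.31, 95% interval -0.48 to 1.015, adjusted p = 0.609 in limma). Without Gdpd3-/- replicate 6 it was -0.01.

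Set within each library, Bcl2l1 differed between the genotypes relative to Mcl1, while Mcl1 and Bcl2 overlapped relative to each other. These ratios are of the values as deposited. They do not change when a library is divided by a single factor, as in TMM scaling, but quantile scaling can change them. They were chosen after the values were seen, and they are given with no test. Mcl1 was 9.76, 10.7 and 11.1 times Bcl2l1 in the Gdpd3+/+ and 16.8, 23.8 and 17.5 times Bcl2l1 in the Gdpd3-/- libraries. Bcl2l1 made up 8.78%, 7.97% and 7.76% of the summed FPKM of the 3 survival genes in Gdpd3+/+ cells and 5.37%, 3.54% and 5.08% in Gdpd3-/- cells, with no overlap. Bcl2 over Bcl2l1 was 0.633, 0.886 and 0.808 against 0.840, 3.50 and 1.25, which overlapped. Mcl1 over Bcl2 also overlapped, with means of 13.7 and 13.6, as did the share of Mcl1 (84.97% to 86.0% against 84.1% to 90.1%) and that of Bcl2 (5.56% to 7.06% against 4.51% to 12.4%). The summed survival FPKM itself was 102.8, 103.9 and 102.7 in the Gdpd3+/+ and 108.9, 93.0 and 131.5 in the Gdpd3-/- libraries, on both sides of the Gdpd3+/+ values.

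**Figure D2:**
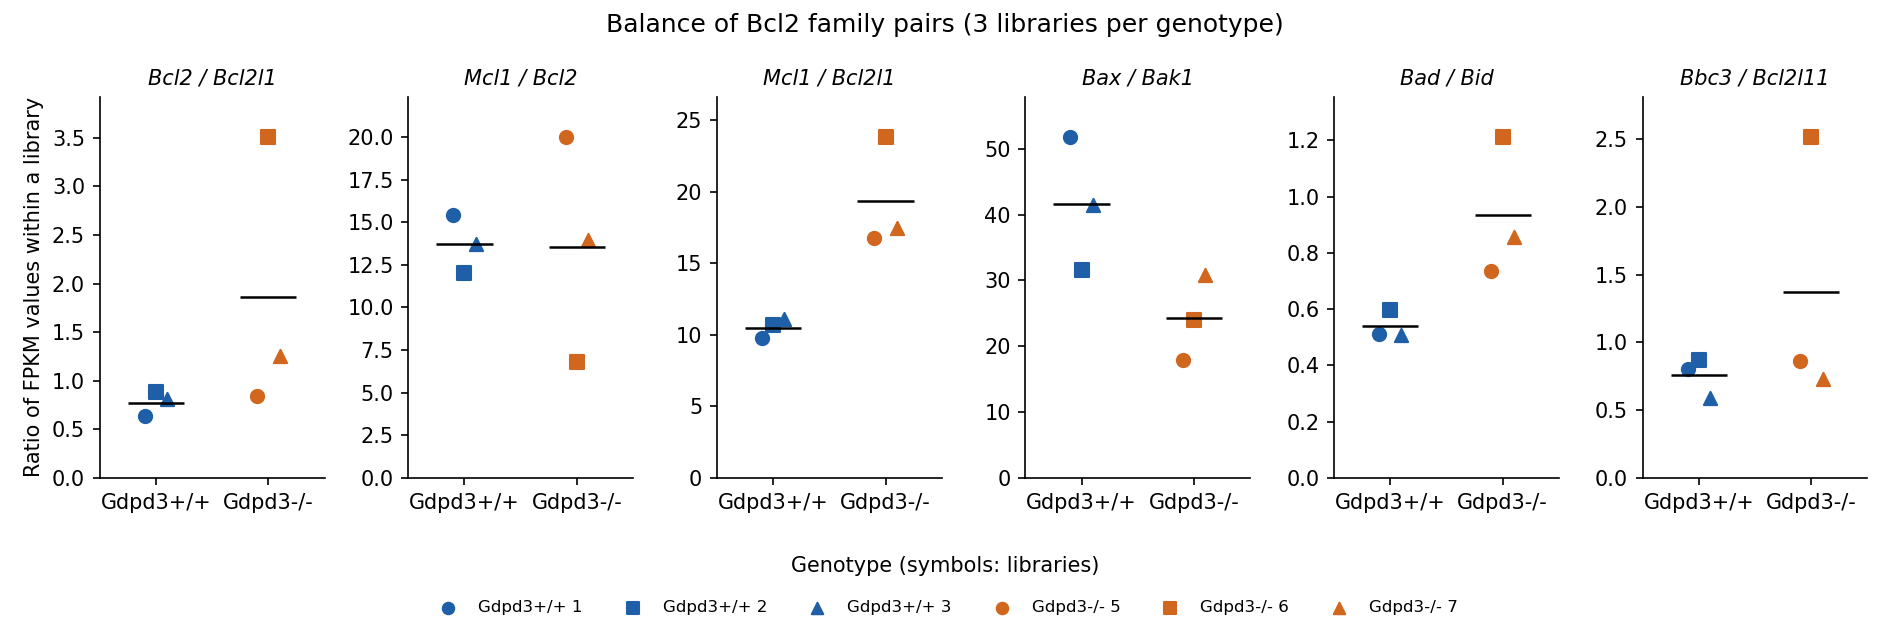
Ratios of FPKM values within each library for 6 pairs of Bcl2 family genes, in Gdpd3+/+ (blue) and Gdpd3-/- (orange) libraries; each symbol is 1 library, black lines are group means and each panel has its own axis from 0. Mcl1 over Bcl2l1 and Bad over Bid were higher in all 3 Gdpd3-/- libraries, Bax over Bak1 was lower, and the other 3 ratios overlapped between the genotypes.

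In the values as deposited both effector genes lay above every Gdpd3+/+ library in all Gdpd3-/- libraries, as did 23.5% of all genes. Under quantile scaling both overlapped between the genotypes. Bak1 (ENSMUSG00000057789.6, mm9 chr17:27156755-27165954), whose protein sits in the mitochondrial outer membrane, was at 0.689, 1.13 and 0.844 FPKM in the Gdpd3+/+ libraries (0.886 ± 0.221, SD, n = 3) and at 2.09, 1.74 and 1.41 FPKM in the Gdpd3-/- libraries (1.75 ± 0.340, SD, n = 3). The groups did not overlap and the ratio of means was 1.97. The log2 fold change was 0.91 (SE 0.33, 95% interval 0.12 to 1.71, unadjusted p = 0.0302, adjusted p = 0.178 in limma). It was 0.54 with a pseudocount of 1, and 0.44 under quantile scaling, where the groups overlapped. Bak1 rested on few reads, about 55 to 113 per Gdpd3+/+ and 57 to 102 per Gdpd3-/- library, as covered bases divided by the read length of 150.

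Bax (ENSMUSG00000003873.9, mm9 chr7:52717065-52722268), the effector that moves from the cytosol to the mitochondrion, was at 35.6, 35.5 and 35.0 FPKM in Gdpd3+/+ cells. In Gdpd3-/- cells it was at 37.5, 41.6 and 43.6 FPKM. The step between the groups was small, with a log2 fold change of 0.20 (SE 0.10, 95% interval -0.03 to 0.44, adjusted p = 0.268 in limma), just under the median of all genes. With libraries scaled by TMM it was -0.01 and the groups overlapped. Bax stayed far above Bak1 in each library, by 51.7, 31.6 and 41.5 times in Gdpd3+/+ and 17.9, 23.9 and 30.9 times in Gdpd3-/- cells.

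The BH3-only genes were split. Bbc3 (ENSMUSG00000002083.6, mm9 chr7:16894965-16903554), which encodes Puma, a target of p53 and of FOXO factors, was at 2.42, 2.24 and 1.99 FPKM in the Gdpd3+/+ libraries (2.22 ± 0.217, SD, n = 3) and at 3.38, 4.43 and 3.27 FPKM in the Gdpd3-/- libraries (3.69 ± 0.640, SD, n = 3). All 3 Gdpd3-/- libraries were higher, with replicate 6 the highest, and the ratio of means was 1.67. The log2 fold change was 0.70 (SE 0.23, 95% interval 0.16 to 1.24, unadjusted p = 0.0183, adjusted p = 0.139 in limma), and 0.43 under quantile scaling. Its share of the summed BH3-only FPKM was 6.74%, 6.09% and 5.43% in Gdpd3+/+ and 9.18%, 13.2% and 7.99% in Gdpd3-/- cells.

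Bad (ENSMUSG00000024959.7, mm9 chr19:7016351-7026388), whose protein is silenced by Akt phosphorylation and binds Bcl2 and Bcl-xL, was at 10.1, 11.2 and 9.63 FPKM in Gdpd3+/+ cells (10.3 ± 0.807, SD, n = 3) and at 12.5, 13.9 and 14.6 FPKM in Gdpd3-/- cells (13.7 ± 1.04, SD, n = 3). Its libraries spread little in either genotype and did not overlap. The ratio of means was 1.33 and the log2 fold change was 0.40 (SE 0.13, 95% interval 0.10 to 0.71, unadjusted p = 0.0170, adjusted p = 0.135 in limma). Under TMM scaling the log2 fold change of Bad was 0.19 and the groups overlapped.

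Bid (ENSMUSG00000004446.6, mm9 chr6:120841948-120866871), which caspase-8 cleaves to link death receptors to the mitochondrion, was the most abundant BH3-only gene and lay the other way. It was at 19.8, 18.8 and 18.9 FPKM in the Gdpd3+/+ and at 17.02, 11.5 and 17.01 FPKM in the Gdpd3-/- libraries. No Gdpd3-/- library reached the Gdpd3+/+ range. The ratio of means was 0.792 and the log2 fold change was -0.36 (SE 0.18, 95% interval -0.77 to 0.06, adjusted p = 0.283 in limma). It was -0.17 without Gdpd3-/- replicate 6 and -0.58 under TMM scaling. Bad over Bid within a library was 0.511, 0.597 and 0.509 in Gdpd3+/+ and 0.737, 1.21 and 0.858 in Gdpd3-/- cells.

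Bcl2l11 (ENSMUSG00000027381.10, mm9 chr2:127951774-127988283), the gene of Bim, which BCR-ABL1 signalling keeps low and which kinase inhibitors release, was at 3.001, 2.57 and 3.38 FPKM in Gdpd3+/+ and 3.92, 1.76 and 4.48 FPKM in Gdpd3-/- replicates 5, 6 and 7. Replicate 6 lay below and the other Gdpd3-/- libraries above the Gdpd3+/+ range. The log2 fold change was 0.08 (SE 0.37, 95% interval -0.81 to 0.98, adjusted p = 0.905 in limma), an interval that holds both a rise and a fall of the size seen in Bbc3.

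Pmaip1 (ENSMUSG00000024521.7), the gene of Noxa, which binds Mcl1, was at 0.661, 2.02 and 2.75 FPKM in Gdpd3+/+ cells. In the Gdpd3-/- libraries the listed values were 0, 1.95 and 1.56 FPKM. It varied widely within both genotypes, and the log2 fold change was -1.25 (SE 1.21, 95% interval -4.15 to 1.65, adjusted p = 0.541 in limma). That value rested on the library at 0, since without Gdpd3-/- replicate 5 it was 0.15, and on the pseudocount, since it was -2.31 with 0.01 and -0.44 with 1 in place of 0.1.

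**Figure D3:**
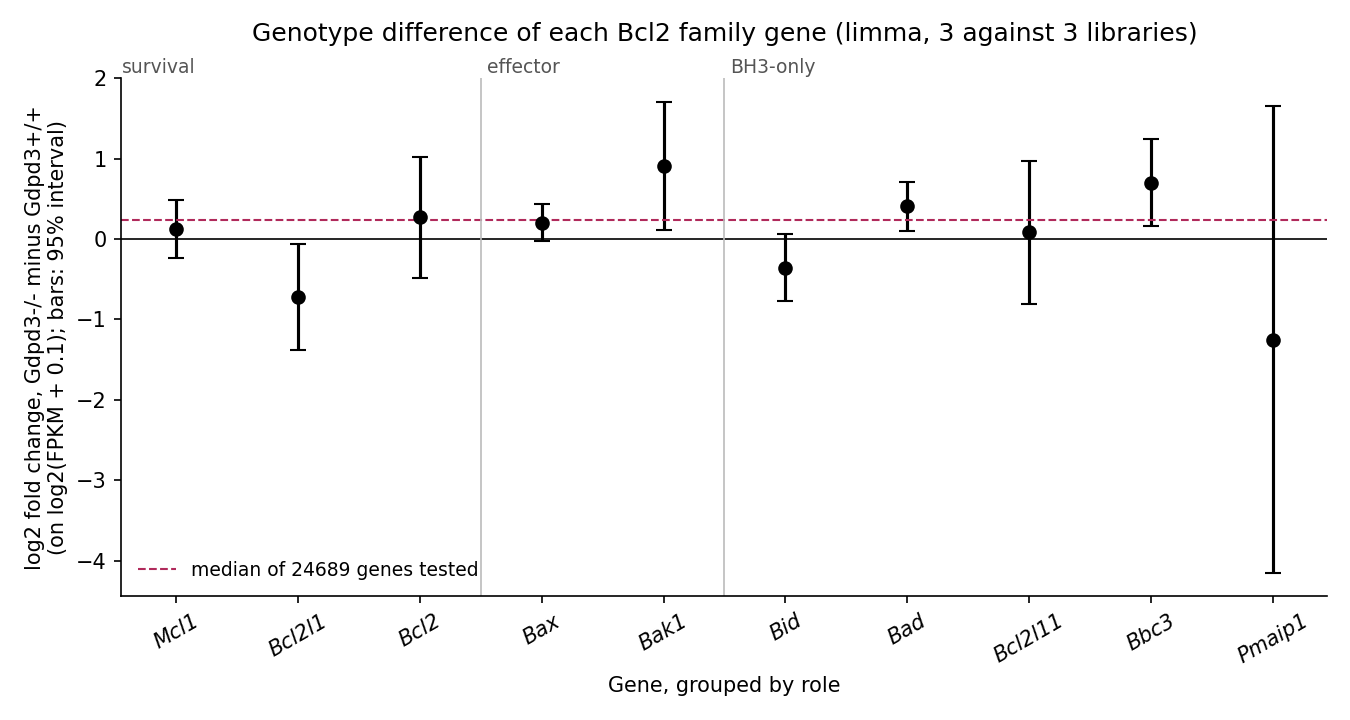
Log2 fold change of each Bcl2 family gene, Gdpd3-/- minus Gdpd3+/+ on log2(FPKM + 0.1), as points with 95% intervals from limma over 3 against 3 libraries; the dashed line is the median of the 24689 genes tested, 0.24. The intervals of Bcl2l1, Bak1, Bbc3 and Bad leave out 0. Those of Bcl2l1 and Bid leave out the dashed line, with that of Bid holding 0, and that of Pmaip1 runs from -4.15 to 1.65.

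The BH3-only genes overlapped between the genotypes in their total and not in their leading parts. Their summed FPKM was 36.0, 36.8 and 36.7 in Gdpd3+/+ and 36.9, 33.6 and 40.9 in Gdpd3-/- cells, which overlapped. Bid made up 51.0% to 55.0% of it in Gdpd3+/+ cells and 46.2%, 34.3% and 41.6% in Gdpd3-/- cells, with no overlap. Bad took 28.1%, 30.5% and 26.3% in Gdpd3+/+ and 34.0%, 41.5% and 35.7% in Gdpd3-/- cells. Bid and Bad together made up most of the sum in each library, so their shares are not independent of each other. The shares are given with no test. The summed effector FPKM was 36.3, 36.7 and 35.9 in Gdpd3+/+ and 39.6, 43.3 and 45.02 in Gdpd3-/- cells, of which Bax made up most.

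The members were followed through 14 other ways of treating the values, and none passed an adjusted p of 0.05 in any of them. Measured against the median of all genes, Bak1, Bbc3 and Bad were above and Bcl2l1, Bid and Pmaip1 below in 14 of 14. Bcl2 was above in 10, Bax in 5, and Mcl1 and Bcl2l11 in 2 of 14. The lowest adjusted p that any of the 14 gave in limma was 0.0840 for Bcl2l1, 0.0989 for Bak1, 0.0837 for Bbc3 and 0.0952 for Bad. For Bcl2l1, Bak1 and Bbc3 that value came without Gdpd3-/- replicate 7, where 9.83% of all genes tested passed as higher and 4.36% as lower, and still 0 of the 10 members passed. These settings share most of their libraries and are not independent of each other. A gene can thus stay on the same side of the median in all 14, and the share of all genes that did so was not counted.

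**Figure D4:**
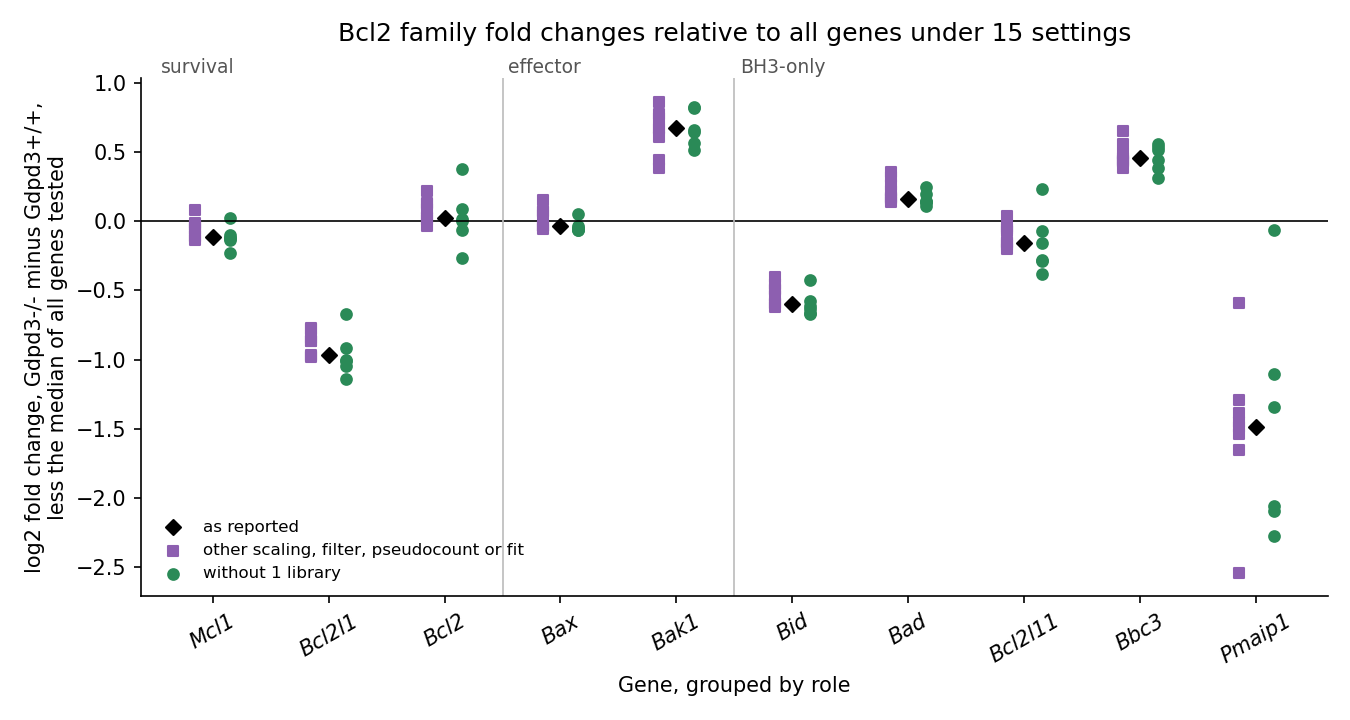
Log2 fold change of each Bcl2 family gene, Gdpd3-/- minus Gdpd3+/+, less the median of all genes tested in the same setting; black diamonds are the reported values, purple squares 8 other scalings, filters, pseudocounts or fits, and green circles the 6 fits without 1 library. Bak1, Bbc3 and Bad stay above the line and Bcl2l1, Bid and Pmaip1 below it, and Pmaip1 moves most.

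The genes of the same machinery outside the 10 gave 1 call in all. Over all genes tested, 1.09% passed the adjusted threshold as higher and 0.616% as lower. At an unadjusted p under 0.05 in limma 16.5% were higher and 5.76% lower. Those last shares were 8.95% and 10.8% under TMM and 9.15% and 10.2% under quantile scaling. They are the background for the counts in each list below. None of the 5 other survival genes tested, of 6 listed, passed the adjusted threshold, and 1 was higher at an unadjusted p under 0.05 in limma. Bcl2a1b and Bcl2a1a, paralogs of A1 so alike that reads could be split between them, had the highest means, and Bcl2a1a was at 0.852, 0.416 and 1.64 FPKM in Gdpd3+/+ and 4.63, 3.36 and 2.09 FPKM in Gdpd3-/- cells (log2 fold change 1.80, SE 0.53, adjusted p = 0.118 in limma). Bcl2a1b was at 2.29, 2.03 and 2.39 FPKM against 3.58, 3.32 and 2.80 FPKM (adjusted p = 0.233 in limma). The median log2 fold change of these 5 genes was 0.51, against 0.24 for all genes.

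Of 9 other death-promoting or BH3-containing relatives tested, of 10 listed, none passed the adjusted threshold, and the median was 0.17. At an unadjusted p under 0.05 in limma 4 were higher (16.5% of all genes were) and 1 lower (5.76%). Under TMM scaling 4 were higher and 2 lower (median -0.05), and under quantile scaling 2 and 3 (median 0.03). Bnip3l, which marks mitochondria for removal, was at 44.2, 46.0 and 51.4 FPKM in Gdpd3+/+ and 49.99, 44.7 and 45.2 FPKM in Gdpd3-/- cells. Its relative Bnip3, induced by low oxygen, was at 24.1, 18.6 and 20.7 FPKM and at 41.7, 44.7 and 25.2 FPKM (log2 fold change 0.78, SE 0.24, adjusted p = 0.125 in limma). The order of the Gdpd3-/- replicates for Bnip3, 6 then 5 then 7, is also that of their skeletal muscle sums, whose part in it was not tested.

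Downstream of the pore, 0 of 15 genes of mitochondrial release and caspases passed the adjusted threshold, and the median was 0.09. At an unadjusted p under 0.05 in limma 5 were higher (16.5% of all genes were) and 2 lower (5.76%). Under TMM scaling 3 were higher and 3 lower (median -0.13), and under quantile scaling 4 and 2 (median -0.02). Cycs, cytochrome c itself, had the highest mean of the list. It was at 60.6, 54.2 and 53.5 FPKM in Gdpd3+/+ and at 133, 212 and 77.4 FPKM in Gdpd3-/- replicates 5, 6 and 7 (log2 fold change 1.21, SE 0.34, adjusted p = 0.109 in limma), again in the order of the muscle sums, whose part was not tested. Vdac1, a channel of the outer membrane, was at 83.9, 78.8 and 75.2 FPKM against 106, 99.4 and 87.4 FPKM (adjusted p = 0.171 in limma). Apaf1, which cytochrome c binds to build the apoptosome, lay the other way, at 5.51, 6.99 and 5.52 FPKM against 2.06, 3.90 and 4.31 FPKM (log2 fold change -0.85, SE 0.31, adjusted p = 0.174 in limma), and was named after its values were seen.

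Among 9 inhibitor of apoptosis genes, 0 passed the adjusted threshold, and the median was -0.17. At an unadjusted p under 0.05 in limma 1 was higher (16.5% of all genes were) and 2 lower (5.76%). Under TMM and quantile scaling 0 were higher and 4 and 3 lower (medians -0.39 and -0.29). Birc5 (survivin, also a mitotic protein) was at 33.0, 38.0 and 37.3 FPKM in Gdpd3+/+ and 27.4, 28.2 and 28.1 FPKM in Gdpd3-/- cells (log2 fold change -0.37, SE 0.10, adjusted p = 0.101 in limma). Birc2 was at 29.9, 27.7 and 24.5 FPKM and at 25.5, 20.7 and 26.8 FPKM, which overlapped. Of 12 death receptor pathway genes 0 passed and 1 was higher at an unadjusted p under 0.05 in limma, with a median of 0.08 (-0.14 under TMM and -0.03 under quantile scaling). Casp8, which cleaves Bid, was at 40.8, 44.7 and 39.9 FPKM against 41.4, 63.1 and 44.3 FPKM, and Ripk3, a kinase of necroptosis, at 34.4, 38.8 and 39.3 FPKM against 41.6, 36.9 and 40.5 FPKM.

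The call was Trp53inp1, a stress-induced p53 target, among 16 genes of the p53 pathway. It was at 23.8, 20.2 and 22.6 FPKM in Gdpd3+/+ and at 9.59, 7.45 and 10.4 FPKM in Gdpd3-/- cells. It fell by 1.28 on the log2 scale (SE 0.16, adjusted p = 0.0275 in limma), and every Gdpd3-/- library was under every Gdpd3+/+ library. The call was lost without any one Gdpd3+/+ library (adjusted p = 0.177, 0.149 and 0.173 in limma without replicates 1, 2 and 3) and without Gdpd3-/- replicate 5 (adjusted p = 0.0580 in limma). It was also lost with no filter and with no trend (adjusted p = 0.0568 and 0.0706 in limma). Trp53, the gene of p53, was at 43.9, 47.3 and 43.1 FPKM against 53.3, 53.1 and 65.4 FPKM (log2 fold change 0.35, SE 0.12, adjusted p = 0.149 in limma), and Btg2 at 30.6, 34.7 and 38.8 FPKM against 70.2, 35.5 and 87.0 FPKM. Of the 16, 4 were higher (16.5% of all genes were) and 2 lower (5.76%) at an unadjusted p under 0.05 in limma. The median was -0.09. Under both TMM and quantile scaling 2 were higher and 5 lower, with medians of -0.26 and -0.29.

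Of 14 upstream regulators of the family, 0 passed the adjusted threshold, and the median was 0.16. At an unadjusted p under 0.05 in limma 3 were higher (16.5% of all genes were) and 0 lower (5.76%). Under TMM scaling 0 were higher and 1 lower (median -0.05), and under quantile scaling 1 and 1 (median 0.02). Atf4, an effector of the integrated stress response, was at 64.5, 73.3 and 67.9 FPKM in Gdpd3+/+ and 86.1, 75.1 and 92.3 FPKM in Gdpd3-/- cells, and Rela, a subunit of NF-kB, at 43.1, 42.2 and 42.0 FPKM against 48.1, 42.0 and 58.6 FPKM. Foxo3, whose factor activates Bcl2l11 and Bbc3 in other settings, was named after its values were seen. It was at 1.97, 2.16 and 1.83 FPKM in Gdpd3+/+ and 3.13, 6.22 and 2.71 FPKM in Gdpd3-/- cells (log2 fold change 0.89, SE 0.34, unadjusted p = 0.0379, adjusted p = 0.197 in limma). It was 0.53 without Gdpd3-/- replicate 6. All 3 Gdpd3-/- libraries were higher, and replicate 6, with the highest Foxo3, had the highest Bbc3 and the lowest Bcl2l11. The order of these replicates for Foxo3 and Bbc3, 6 then 5 then 7, is also that of their skeletal muscle sums. Bcl2l1, Bcl2l11 and Mcl1 ran in the reverse order, and Bcl2, Bax, Bak1, Pmaip1, Bid and Bad in neither. With 3 libraries only a few orders are possible, so a gene can fall in this order or its reverse without any link to muscle content. The share of all genes in either order was not counted, here or for Bnip3 and Cycs above. The part of the muscle content in these orders was not tested. By immunostaining, the paper found Foxo3a protein mostly outside the nucleus when Gdpd3 was missing.

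Since FOXO factors are known regulators of Bcl2l11 and Bbc3, the core of their binding motif, TGTTTAC or its reverse complement GTAAACA, was searched in RefSeq promoter windows on GRCm38.p6, from 250 bases before to 50 after a start site. Both strands were covered by the pair of words, which do not overlap each other as matches. It occurred in 1199 of 32851 windows (3.65%). Of 15 windows that belong to 9 of the members, 2 held it, 1 of Bcl2l11 and 1 of Bbc3, while another window of Bcl2l11 and the other two of Bbc3 held none. The matching window of Bbc3 overlaps another of its windows in position. The matching windows had a G and C content of 71% for Bcl2l11 and 74.7% for Bbc3, against a median of 52.7% over all windows. The share of windows with a match at a like content was not counted. The 100 bases of each window that hold the match are shown, with the match in capitals.
Bcl2l11, chr2:128125788-128125887, plus strand: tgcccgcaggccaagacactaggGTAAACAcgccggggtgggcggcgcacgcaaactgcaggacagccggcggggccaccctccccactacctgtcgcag
Bbc3, chr7:16310048-16310147, plus strand: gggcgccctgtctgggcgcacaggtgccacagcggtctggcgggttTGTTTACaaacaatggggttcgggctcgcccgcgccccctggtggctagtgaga

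The match of Bcl2l11 began 227 bases and that of Bbc3 167 bases before the start site. A match is a description of the letters and not evidence that a factor binds there, and these libraries hold no binding data.

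The genes whose pattern over the 6 libraries was most like the most abundant member of each role were found by Pearson's r of log2(FPKM + 0.1) among 9640 other genes with a mean of at least 5 FPKM. They were Srsf7 (r = 0.993), Set (0.991) and Drg2 (0.990) for Mcl1. Mef2d (0.996), 1190007I07Rik (0.996) and Eif3m (0.994) were nearest to Bax, and Golim4, Ets1 and Add3 (0.997, 0.997 and 0.996) to Bid. The points share libraries and genotype, the genes were picked as the highest of many, and no p is given.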

How the data were processed

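RNA-Seq of 6 LT-CML stem cell libraries, 3 Gdpd3+/+ and 3 Gdpd3-/-, was analysed by the genotype in the labels. Libraries were made with SMART-Seq v4 and sequenced as paired reads of 150 bases. The authors' processing notes list Trimmomatic, Trim Galore, cutadapt 1.16, STAR 2.6.1a, featureCounts 1.6.1, DESeq2 and mouse build mm9, and the authors deposited FPKM values for 36976 genes. Their second table holds their own DESeq2 comparison and was not used. No strand setting was found in the sources used here, so reads of overlapping antisense genes cannot be told apart.

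FPKM times gene length gave whole covered bases in every library (100% of 5000 low values, tolerance 0.01), hence the depths; read counts were not given, so no count model was run. Limma 3.58.1 (R 4.3.3) took log2(FPKM + 0.1) with a trend on intensity, for 24689 genes whose mean over the libraries reached 0.05 FPKM, with genotype as the only term and Benjamini-Hochberg adjustment over all of them. The function was tested on simulated data, with the spread of the Gdpd3+/+ libraries in both groups. That test cannot show how it behaves with the wider spread of the Gdpd3-/- libraries. No library was a copy of another (chi-square per gene 38.6 to 127 between replicates). Tried as alternatives were TMM and quantile scaling, a fit weighted by library and one with no trend, a filter at a mean of 1 FPKM and none, pseudocounts of 0.01 and 1, and fits lacking 1 library.

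The members and lists were chosen with earlier results of these data known. Named are the members, in each related list the called genes and the 2 with the highest mean, the 3 genes most like the most abundant member of each role, the sort markers, the highest gene of each other marker list and Gdpd3. Apaf1, Foxo3 and the marker Cd8a were named after their values were seen.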

Additional observations from a re-analysis of the deposited data

How the results depend on the processing

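No paired analysis was possible because no replicate number occurs in both genotypes. Over all genes, 422 were called (270 higher and 152 lower in Gdpd3-/- cells), and the number called for the members was 0 in every setting. The calls over all genes were 225 (124 higher, 101 lower) with a pseudocount of 1, 673 (471 higher) when a mean of 1 FPKM was required, 240 (124 higher) under array weights and 153 (79 higher, 74 lower) without the trend. Under TMM scaling they were 118 higher and 241 lower, so that 32.9% of its calls were higher against 64.0%, and quantile scaling gave 119 higher, 36.6% of its calls. The median over all genes moved from 0.24 to 0.04 and -0.01 under these scalings. Leaving out 1 library gave 0 (without Gdpd3+/+ replicate 1) to 3413 calls (without Gdpd3-/- replicate 7), 0 to 2364 higher and 0 to 1049 lower.

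Of 140 values of members, 129 kept their direction and side of the threshold, and 11 turned. Under TMM scaling the log2 fold change was -0.092 for Mcl1, -0.014 for Bax and -0.13 for Bcl2l11, and under quantile scaling -0.045 for Mcl1 and -0.21 for Bcl2l11. Members above every Gdpd3+/+ library numbered 2 under TMM (14.5% of all genes) and 2 under quantile scaling (13.6%), against 4 (23.5%). Without 1 library the log2 fold change ran from -0.011 to 0.60 for Bcl2, -0.0092 to 0.28 for Mcl1, -0.16 to 0.48 for Bcl2l11 and -2.03 to 0.15 for Pmaip1. The cause of these shifts was not tested. In the related lists, leaving out Gdpd3-/- replicate 7 gave 3 calls among other death genes, 5 among release and caspase genes and 1 among inhibitors of apoptosis, against 0. The p53 list, with 1 call, had 2 at a pseudocount of 0.01 or a mean of 1 FPKM, 0 with no filter or no trend, and 0 to 3 without 1 library. The effect of depth was not measured, Bak1, Pmaip1 and Bbc3 rested on the fewest reads, and 3 libraries per genotype limit every p.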
